A study of Mus musculus with 36 samples.

Results

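The 8 S100 calcium-binding protein genes S100a1, S100a4, S100a6, S100a8, S100a9, S100a10, S100a11 and S100a13 were followed through 36 RNA-sequencing libraries of mouse bone marrow-derived macrophages (BMDMs). They were taken by symbol from a table of 54532 genes. The macrophages were grown for 7 days with MCSF from marrow of adult female C57BL/6 mice and treated for 6 h. Wild-type (WT) cells carried Bmal1 flox/flox without Cre (n = 3 per treatment), and KO cells carried LysM-Cre;Bmal1 flox/flox (n = 6 per treatment), so both genotypes shared the floxed allele. LysM-Cre is driven by the lysozyme 2 promoter, which is active in macrophages, monocytes and neutrophils, and the recombination is therefore limited to cells that have switched that promoter on. Each genotype received DMSO vehicle, 100 µM CCM (Core Circadian Modulator, a small molecule that binds the PASB domain of the clock factor BMAL1), 100 nM LPS with DMSO (a bacterial lipopolysaccharide that activates Toll-like receptor 4), or LPS and CCM together. The comparisons ask what LPS and CCM do to these genes, and whether the response to CCM needs BMAL1.

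S100 proteins are small EF-hand proteins that change shape on binding calcium and then dock on other proteins. S100A8 and S100A9 pair as calprotectin, which is abundant in neutrophils and monocytes, binds zinc and manganese away from microbes and, once released, signals through Toll-like receptor 4 and RAGE. The other members act mainly inside cells, on annexins, myosin and other cytoskeletal or secretory partners.

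All 8 genes lay on chromosome 3 (mm10). Of these, 6 lay within chr3:90511034-90695721, with S100a1 at chr3:90511034-90514392 on the minus strand, S100a13 at chr3:90514435-90524581, S100a4 at chr3:90603771-90606045, S100a6 at chr3:90612882-90624181 and S100a8 at chr3:90668978-90670035 on the plus strand, and S100a9 at chr3:90692632-90695721 on the minus strand. S100a11, at chr3:93520488-93526287, and S100a10, at chr3:93555080-93564643, both on the plus strand, stood 2824766 bases further along. The counts covered the exons of each gene, 511 to 1367 bases in length. For S100a4, 302 of its 584 exonic bases (51.7%) were also annotated to Gm42674, a transcript unit on the same strand, which had 0 reads in all 36 libraries. How the counting treated reads that match both is not given in the sources used here, so the level of S100a4 is uncertain. The exons of the other 7 members overlapped no other annotated gene. The pseudogene S100a11-ps, a near copy of S100a11, had 0 reads in all 36 libraries.

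Upstream sequences are shown for the calprotectin genes, whose levels moved together, and for the head-to-head pair S100a1 and S100a13. RefSeq windows (GRCm38.p6) of 250 bases before to 50 after the start matched 7 of the 8 members, and S100a10 is named only. Bases in annotated exons were left out of the printed stretches. Capitals mark a match to TTGCNNAA, a C/EBP motif, found once in the S100a9 window and on either strand in 10.8% of 32851 mouse promoter windows. The S100a8 stretch is chr3:90668821-90668977 (plus strand), the S100a9 stretch is chr3:90695722-90695971 (minus strand), and the 42 bases between S100a1 and S100a13 are chr3:90514393-90514434 (plus strand).
S100a8: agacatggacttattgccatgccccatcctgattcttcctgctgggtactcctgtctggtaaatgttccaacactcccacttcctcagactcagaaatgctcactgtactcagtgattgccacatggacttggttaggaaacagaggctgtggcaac
S100a9: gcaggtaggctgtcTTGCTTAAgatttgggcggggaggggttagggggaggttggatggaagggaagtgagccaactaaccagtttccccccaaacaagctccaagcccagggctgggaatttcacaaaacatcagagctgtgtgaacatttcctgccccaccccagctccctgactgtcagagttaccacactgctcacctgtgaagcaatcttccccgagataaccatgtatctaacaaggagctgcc
S100a1/S100a13: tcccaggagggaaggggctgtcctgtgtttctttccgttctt

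The windows were also searched on both strands for CACGTG, the E-box that BMAL1 and CLOCK bind, which 7.15% of all windows held. The AP-1 motif TGANTCA was in 7.81% of windows. The TATA box motif TATAAA was in 13.6%. CACGTG occurred once in the windows of S100a6 and S100a11, TGANTCA occurred at 2 positions in that of S100a11, and TATAAA occurred once in those of S100a4, S100a8 and S100a9. None of these motifs, the C/EBP motif included, was in the S100a1 or S100a13 window. Such matches describe letters and not sites.

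Library totals ran from 13469262 to 28288923 counts (median 19951421), and no libraries of a group agreed within sampling noise. Levels are CPM, counts relative to the TMM-scaled size of the library, and a gene was called at an adjusted p of at most 0.05. Macrophage markers were abundant in every library (8 of 8 detected, summed level 11500 to 23200 CPM). Most of the sum was Lyz2, at 12000 to 14000 of 16500 to 18800 CPM in WT vehicle libraries. In KO vehicle replicate 6, Adgre1 (346 against a median of 807 CPM in the others), Mertk, Csf1r and Itgam were lower. There, Cd68, Fcgr1, Cd14 and Lyz2 were higher. The 11 neutrophil markers, with S100a8 and S100a9 left out of the list, summed to 269 to 769 CPM, with Ly6g at 0 in 3 libraries, and the 7 fibroblast markers to 305 to 1720 CPM, with Lum at 0 in 5. In bulk RNA, fewer cells of a type and less RNA per cell cannot be told apart. Bmal1 (Arntl) was at 8.55 ± 1.24 CPM (SD, n = 3) in WT and 6.68 ± 1.88 CPM (n = 6) in KO vehicle cells. Whole-gene counts include exons outside a deleted part and do not measure the deletion.

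KO replicate 6 stood apart before any comparison was made. Every member was higher in it than in each of the other 5 KO libraries under each of the 4 treatments. Under vehicle, S100a13 was at 126.0 CPM in KO replicate 6 against 26.8 to 35.6 CPM in the others, S100a6 at 827.6 against 188.2 to 293.6 CPM, and S100a8 at 322.2 against 130.8 to 272.8 CPM. Relative to the median of the others, the excess of replicate 6 ran from 1.95-fold (S100a8, vehicle) to 6.27-fold (S100a4, CCM). It was at most 2.55-fold for S100a11, 2.91-fold for S100a8 and S100a9 and 3.17-fold for S100a10. The excess was not particular to S100 genes. Of 15720 genes, 34.1% to 47.3% differed at least 2-fold from the other KO libraries in replicate 6.

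Over all genes, the shift in KO replicate 6 went with gene length, and the members have 511 to 1367 exonic bases. Among the members the excess did not rank by length. Under vehicle it was 2.48-fold for S100a11 (511 bases), 1.99-fold for S100a9 (522 bases) and 3.89-fold for S100a6 (1367 bases). The excess of every member was above the median of the short genes. The 1528 genes under 1000 bases had a median log2 difference of 0.58 from the other KO vehicle libraries, whereas the 7476 genes of 4000 bases or more had -0.52. With CCM these medians were 0.54 and -0.63, and with LPS 0.61 and -0.45. Under LPS+CCM, replicate 5 (0.44 and -0.21) and replicate 2 (0.19 and -0.08) leaned the same way as replicate 6 (0.46 and -0.39). In the WT libraries the medians of both classes lay between -0.10 and 0.14. The part of library composition in the KO results was not tested, and the KO results below are given with and without replicate 6.

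**Figure D1:**
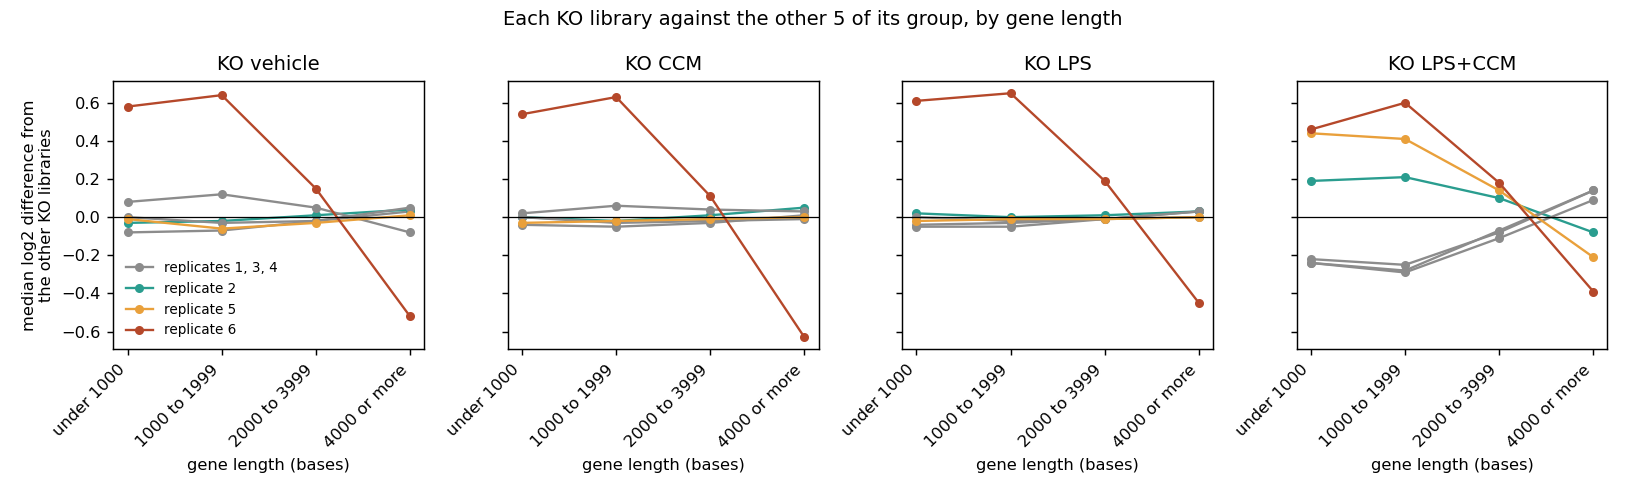
Median log2 difference of each KO library from the other 5 of its group (vertical axis), for genes grouped by length in bases (horizontal axis), 1 panel per treatment and 1 line per library. Replicate 6 sits at 0.46 to 0.61 for genes under 1000 bases and at -0.39 to -0.63 for genes of 4000 bases or more, and replicates 5 and 2 lean the same way with LPS+CCM only.

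In unstimulated WT macrophages the members differed widely in level. Per kilobase of exon, S100a11, an annexin A1 partner, was at 699.1 ± 13.8 CPM (SD, n = 3), and S100a9 at 430.0 ± 21.9 CPM. S100a8 followed at 216.3 ± 17.0 CPM, then S100a6, which binds annexins and calcyclin-binding protein, at 170.8 ± 12.9 CPM, and S100a1, known for its part in muscle calcium handling, at 155.8 ± 21.3 CPM. The ranges of S100a6 and S100a1 are close enough that their order is within the spread. S100a10, which forms a tetramer with annexin A2, was at 108.1 ± 14 CPM, S100a13, a carrier in the release of FGF1 and IL-1α, at 41.1 ± 4.54 CPM, and S100a4, a myosin IIA partner, at 3.98 ± 1.10 CPM per kilobase. Of the other S100 genes, only S100a16 reached the level needed for testing (at most 24.3 CPM). S100a2, S100a3, S100a5, S100a7a, S100a14, S100b and S100g stayed at or below 1.53 CPM, and S100z had 0 counts in all 36 libraries.

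**Figure D2:**
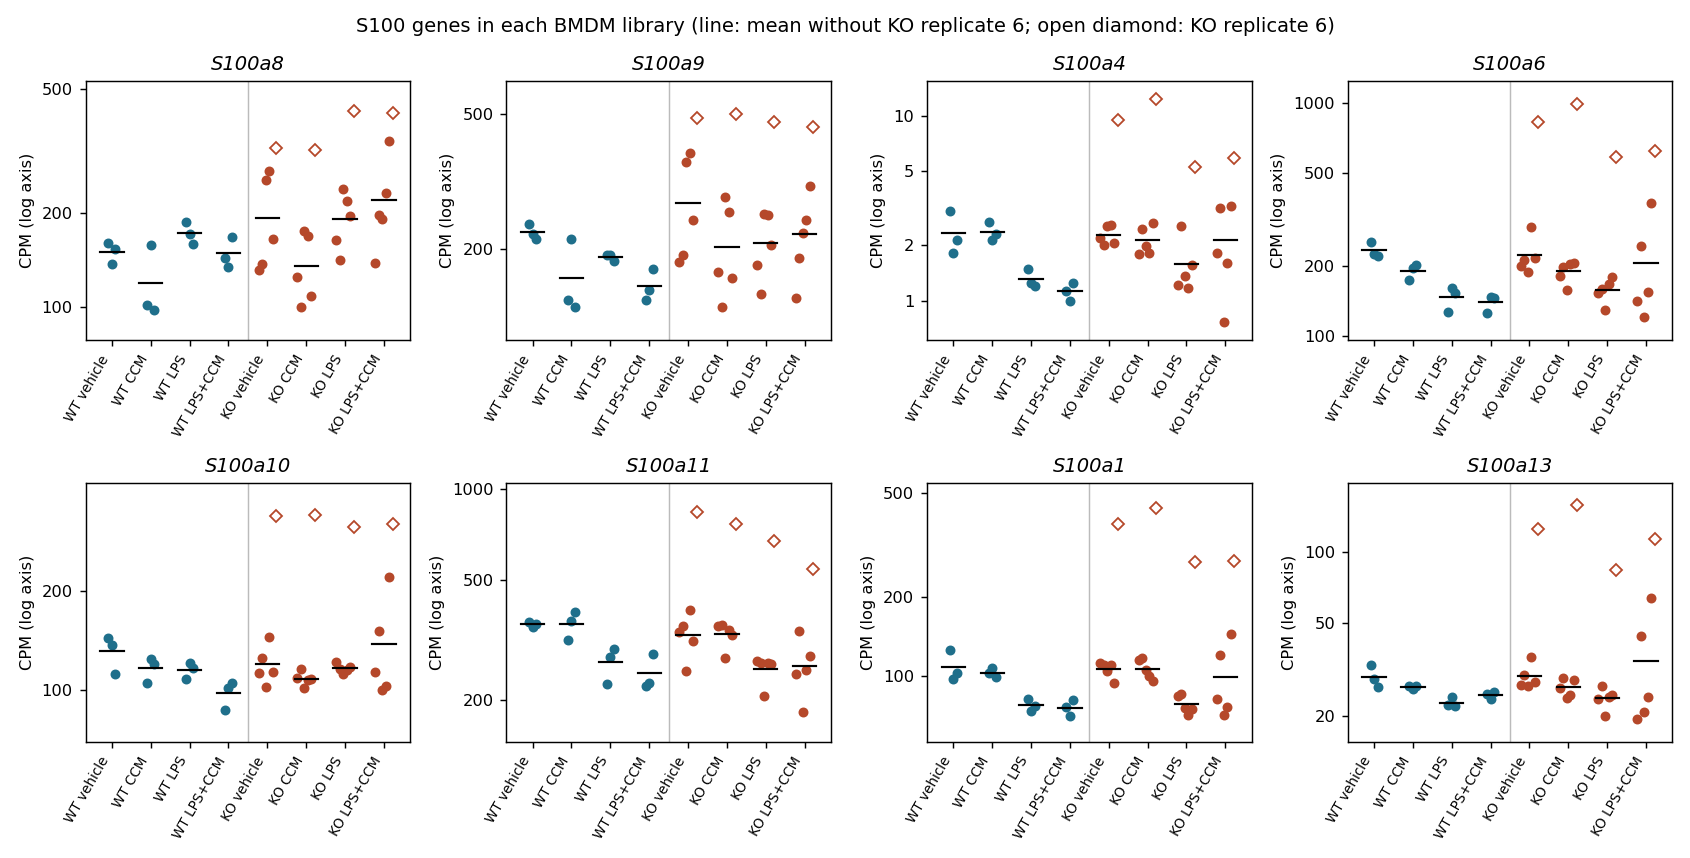
CPM of each member in each library (vertical axes, log scale, TMM-scaled) for the 8 groups, with WT in blue and KO in red. Horizontal lines are means without KO replicate 6, whose libraries are open diamonds and lie above the other 5 KO libraries in all 32 gene and treatment combinations.

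LPS lowered most of the S100 genes of WT macrophages by modest amounts, while S100a8 did not follow its partner S100a9. The call was made for 7 of the 8 members, against 63.0% of all 14501 genes tested. Of these, 6 were lower, against 32.4% of all genes, and 1 was higher, against 30.6%. The median log2 change of the 8 members was -0.39, beside -0.05 over all genes. With all 36 libraries in 1 fit, which share 1 estimate of the spread, 0 members were called.

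S100a6 was at 253.6, 225.2 and 221.6 CPM in WT vehicle replicates 1 to 3 and at 127.0, 161.7 and 152.5 CPM with LPS. The highest LPS library lay well below the lowest vehicle library, a log2 change of -0.66 (SE 0.0913, edgeR adjusted p = 0.000125). Such a separation was common, as all LPS libraries lay below all vehicle libraries for 5222 of the 14501 genes tested in WT. S100a4 had only 1.81 to 3.05 CPM with vehicle and 1.2 to 1.48 CPM with LPS. These groups did not overlap either, and the log2 change was -0.83 (SE 0.27, edgeR adjusted p = 0.0215), under the limit set by its shared exon. This call was lost by DESeq2 (adjusted p = 0.0634) and on leaving out WT LPS replicate 2 or 3 or WT vehicle replicate 1 (edgeR adjusted p = 0.0691 to 0.1, and a log2 change of -0.58 without the last).

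S100a1 was at 124.9, 96.8 and 102.7 CPM with vehicle and at 81.6, 72.9 and 76.3 CPM with LPS. Every LPS library was lower, by -0.49 on the log2 scale (SE 0.0929, edgeR adjusted p = 0.0011). Its divergent neighbour S100a13 was at 32.9, 28.7 and 26.6 CPM with vehicle and 22.2, 24.1 and 22.0 CPM with LPS. The fall of S100a13 was smaller (log2 change -0.36, SE 0.0888, edgeR adjusted p = 0.0051). S100a11 was at 363.6, 349.7 and 358.5 CPM with vehicle and at 226.5, 278.7 and 295.4 CPM with LPS, again without overlap (log2 change -0.41, SE 0.0899, edgeR adjusted p = 0.00245). S100a10 was the 1 member not called. It was at 144.2, 137.1 and 111.9 CPM with vehicle and 107.5, 120.3 and 116.2 CPM with LPS, ranges that overlap (log2 change -0.19, SE 0.0897, edgeR adjusted p = 0.0982). It was called lower with no filter (-0.22, edgeR adjusted p = 0.0164), under total counts (-0.60, edgeR adjusted p = 0.000165) and without WT vehicle replicate 3 (-0.28, edgeR adjusted p = 0.00495).

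The calprotectin genes parted under LPS. S100a9 was at 237.1, 221.6 and 214.8 CPM with vehicle and at 192.8, 191.9 and 184.9 CPM with LPS. It fell by 0.24 on the log2 scale (SE 0.0556, edgeR adjusted p = 0.00405). S100a8 was at 160.4, 137.2 and 152.8 CPM with vehicle and at 187.1, 171.4 and 158.4 CPM with LPS, with 1 LPS library inside the vehicle range. Its change was 0.20 (SE 0.0789, edgeR adjusted p = 0.0466) after TMM scaling but -0.21 (edgeR adjusted p = 0.0293) when libraries were scaled by total counts alone, so its direction rests on the scaling. Under total counts the median of all genes moved from -0.05 to -0.47, 55.6% of genes were called lower, and the changes of all 8 members were negative. The S100a8 call was also lost on leaving out WT LPS replicate 1 or 2 or WT vehicle replicate 2 (edgeR adjusted p = 0.0965 to 0.161).

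The ratio of S100a9 to S100a8 counts within a library does not depend on scaling. There were 1.48, 1.61 and 1.41 S100a9 counts per S100a8 count in WT vehicle libraries and 1.03, 1.12 and 1.17 with LPS. The groups did not overlap, with means of 1.5 ± 0.106 and 1.11 ± 0.0695 (SD, n = 3). In KO cells the ratio ran from 1.40 to 1.5 with vehicle and from 1.05 to 1.16 with LPS (n = 6), again without overlap. KO replicate 6, at 1.5, lay just above the other vehicle libraries (1.40 to 1.47), and at 1.12 it lay inside the others with LPS. With CCM in place of vehicle the ratio was 1.38 ± 0.0224 in WT and 1.5 ± 0.11 in KO. With LPS+CCM it was 1.06 ± 0.0774 in WT and 1.04 ± 0.0946 in KO, overlapping LPS alone. This ratio was chosen after the values of both genes were seen, so it is given as a description with no test.

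**Figure D3:**
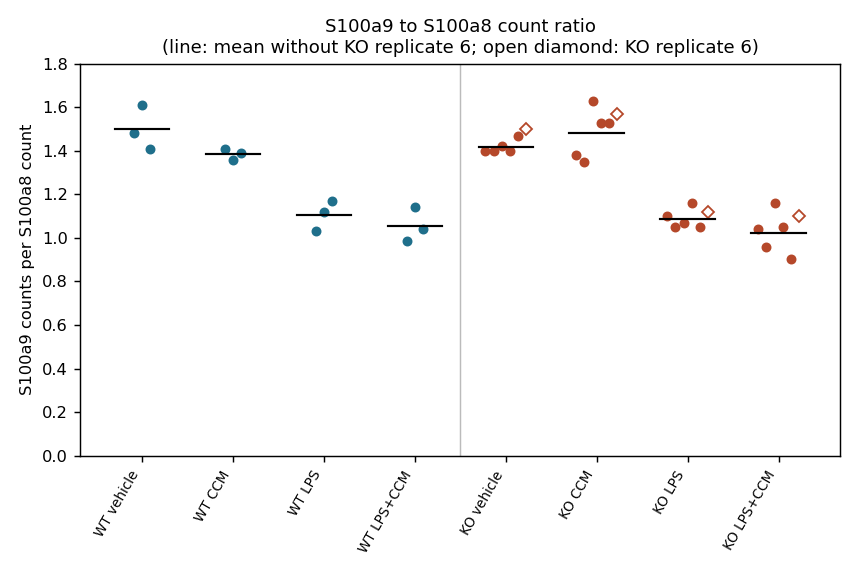
S100a9 counts per S100a8 count in each library (vertical axis, from 0) for the 8 groups. WT is blue, KO is red, lines are means without KO replicate 6, and KO replicate 6 is an open diamond. The LPS libraries of both genotypes lie between 1.03 and 1.17, and all vehicle libraries between 1.40 and 1.61.

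Neutrophils and monocytes both hold much calprotectin, so the markers of both are given here. Across treatments the neutrophil marker sum did not follow S100a8. It was 485 to 501 CPM in WT vehicle libraries and 337 to 348 CPM with LPS, where S100a8 was higher after TMM scaling, and it was lower with LPS in 6 of 6 KO pairs, where S100a8 was higher in 4. Within the list, Camp (a cathelicidin of neutrophil granules) was at 9.46 to 11.6 CPM with vehicle and 16.8 to 21.5 CPM with LPS in WT. The summed level of 5 monocyte markers in WT was 73.6 to 83.7 CPM with vehicle, 44.3 to 68.5 CPM with CCM, 113 to 126 CPM with LPS and 72.2 to 109 CPM with LPS+CCM, thus highest with LPS and lowest with CCM. Among KO vehicle libraries 1 to 6, the neutrophil sums were 443, 455, 744, 769, 567 and 542 CPM and the S100a9 levels 183.2, 191.8, 361.6, 382.9, 243.1 and 484.8 CPM. Both were low in replicates 1 and 2 and high in 3 and 4, whereas replicate 6 had the highest S100a9 level and a lower sum than replicates 3 to 5. The markers within the sum were split in replicate 6. Mpo (35.7 against 16.2 CPM), Elane, Prtn3, Camp and Retnlg were above the median of the other KO vehicle libraries. Ly6g, Ngp, Ltf, Cxcr2, Mmp8 (45.9 against 65.4 CPM) and Chil3 were below that median. The part of neutrophil or monocyte RNA in the S100a8 and S100a9 results was not tested.

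In KO macrophages the same 6 members were lower with LPS once libraries were compared as pairs. The unpaired fit called 0 of 8 members, against 47.1% of 13648 genes, 0 at an unadjusted p under 0.05 and 0 by DESeq2. The 6 same-numbered pairs deviated together, and a fit that blocked on replicate called 6 members lower, against 37.5% of all genes. Without replicate 6 and without the block there were 5 (36.9%), and with the block and without replicate 6 there were 6 (38.5%).

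S100a6 ran from 188.2 to 827.6 CPM with vehicle (median 215.0) and from 130 to 586.5 CPM with LPS (median 164.1), and it was lower with LPS in 6 of 6 pairs. The paired log2 change was -0.50 (SE 0.0611, edgeR adjusted p = 6.85e-06), and without replicate 6 it was -0.50 (edgeR adjusted p = 2.76e-05). S100a1, lower in 6 of 6 pairs, ran from 94.1 to 380.8 CPM with vehicle (median 109.9) and from 70.4 to 274.0 CPM with LPS (median 79.1), a paired change of -0.47 with and without replicate 6 (edgeR adjusted p = 1.77e-06 and 6.58e-06). S100a9 ran from 183.2 to 484.8 CPM with vehicle (median 302.4) and from 147.8 to 473.4 CPM with LPS (median 229.3). All 6 pairs were lower, and the paired change was -0.31 (SE 0.0756, edgeR adjusted p = 0.00227), or -0.37 without replicate 6 (edgeR adjusted p = 0.000595).

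S100a11 ran from 249.6 to 837.5 CPM with vehicle (median 344.3) and from 207.2 to 674.5 CPM with LPS (median 265.1), and S100a13 from 26.8 to 126.0 CPM (median 28.9) and from 20.0 to 84.1 CPM (median 24.3). Both were lower in 6 of 6 pairs. Their paired changes were -0.37 for both (edgeR adjusted p = 2.31e-05 and 0.000269), and -0.38 and -0.33 without replicate 6. S100a4, at a median of 2.35 CPM with vehicle and 1.46 CPM with LPS, was lower in 5 of 6 pairs, with a paired change of -0.62 (edgeR adjusted p = 0.0147) and -0.57 without replicate 6. S100a8 ran from 130.8 to 322.2 CPM with vehicle (median 209.7) and from 141.2 to 423.8 CPM with LPS (median 206.4), and was higher in 4 of 6 pairs. Its paired change was 0.08 (SE 0.0831, edgeR adjusted p = 0.383) and 0.02 without replicate 6 after TMM scaling, and the unpaired value was -0.30 under total counts. S100a10 was higher in 3 pairs and lower in 3 (paired change -0.06, SE 0.0606, edgeR adjusted p = 0.401, and -0.05 without replicate 6).

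**Figure D4:**
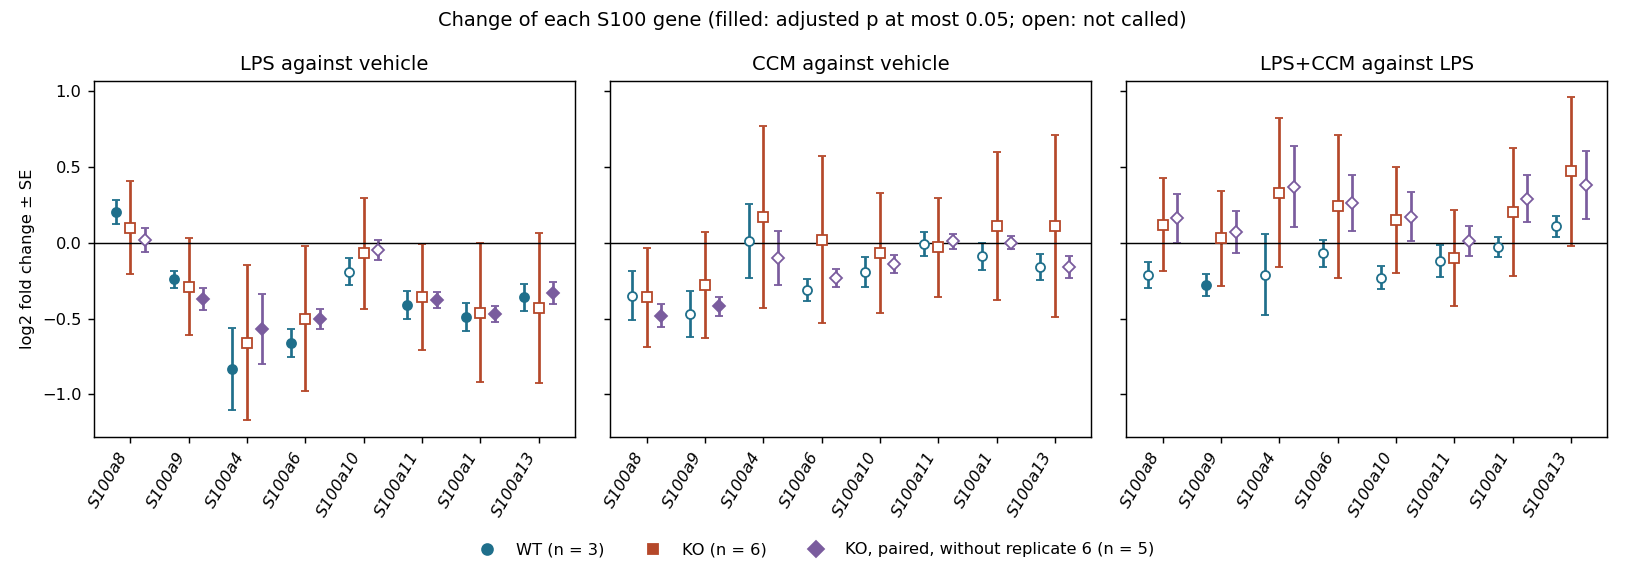
Log2 fold change ± SE of each member (vertical axis) for LPS against vehicle, CCM against vehicle and LPS+CCM against LPS, from edgeR fits in WT (n = 3), in KO (n = 6) and in KO as pairs without replicate 6 (n = 5). Filled symbols are called, open ones are not. For LPS+CCM against LPS in KO, same-numbered libraries were not all correlated (r from -0.1). With LPS, S100a1, S100a6, S100a9, S100a11 and S100a13 lie between -0.24 and -0.66 in each fit, and S100a8 lies between 0.02 and 0.20 after TMM scaling.

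Genes that S100 proteins meet, and genes known to control them, were called with LPS in numbers to be read against the 63.0% of all genes called in WT and 47.1% in KO. Of 15 partner and receptor genes, 5 were called higher and 4 lower in WT (median log2 change 0.03), a share near that of all genes. In KO they were 5 and 3, and without replicate 6, where 69.4% of all genes were called, they were 5 and 5. Il1a, the S100A13 cargo interleukin-1α, rose from 1.57 ± 0.0941 to 1343 ± 203 CPM (SD, n = 3) in WT. Cd14, the LPS co-receptor, rose by 2.86 on the log2 scale, Fgf1, another S100A13 cargo, was called lower (-3.30, from 1.29 ± 0.392 CPM), and Cacybp, the S100A6-binding calcyclin-binding protein, rose by 1.47. Of the 8 genes for factors that control S100a8 and S100a9, 7 were called higher and 1 lower in each genotype (median 1.85 in both, beside -0.05 over all genes), and the KO counts were the same without replicate 6. Cebpa, which drives the myeloid program, fell from 520.5 ± 58.8 to 69.2 ± 4.13 CPM in WT, and Cebpb rose from 193.8 ± 15.3 to 645.4 ± 65.6 CPM. Stat3 rose by 1.65 on the log2 scale, and Il6 rose from 0.330 ± 0.110 to 501.2 ± 83.5 CPM.

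CCM alone gave lower values of S100a8 and S100a9 in some unstimulated WT libraries and no call by the main test. Of the 8 members, 0 were called by edgeR, against 0.0570% of 14024 genes, with 2 (S100a6 and S100a9) at an unadjusted p under 0.05 and 1 (S100a6) called by DESeq2. S100a9 was at 142.0, 214.8 and 135.5 CPM with CCM, against 214.8 to 237.1 CPM with vehicle. CCM replicates 1 and 3 were low and replicate 2 equalled the lowest vehicle library (log2 change -0.47, SE 0.15, edgeR adjusted p = 0.338). S100a8 was at 101.0, 157.9 and 97.7 CPM with CCM, the same libraries low and the same library high (log2 change -0.35, SE 0.161, edgeR adjusted p = 0.514). The neutrophil marker sum had the same order, at 360, 531 and 355 CPM.

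S100a6 was at 174.9, 195.3 and 201.2 CPM with CCM, and here no CCM library reached the lowest vehicle library at 221.6 CPM, as held for 6.50% of all genes in that direction. The log2 change was -0.31 (SE 0.0741, edgeR adjusted p = 0.195, DESeq2 adjusted p = 0.0051), so the call depended on the tool. S100a10, S100a13, S100a1, S100a11 and S100a4 had log2 changes from -0.19 to 0.01, with overlapping groups. S100a11, for example, was at 316.3, 365.2 and 391.5 CPM with CCM, around the 349.7 to 363.6 CPM of vehicle.

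In unstimulated KO macrophages S100a8 was lower with CCM in 6 of 6 pairs. It ran from 130.8 to 322.2 CPM with vehicle (median 209.7) and from 99.9 to 317.5 CPM with CCM (median 146.4). The unpaired fit called 0 of 8 members and 0% of 13799 genes, with 0 members at an unadjusted p under 0.05 and 0 by DESeq2. Here too the same-numbered libraries deviated together (r of 0.338 to 0.842, beside a median of 0.223 between libraries of different number). The fit with the replicate block called S100a8 lower (log2 change -0.40, SE 0.0884, edgeR adjusted p = 0.0346), 1 of 8 members against 1.70% of genes. Without replicate 6, the paired fit called S100a8 (-0.48, SE 0.0735, edgeR adjusted p = 0.00308) and S100a9 (-0.42, SE 0.0633, edgeR adjusted p = 0.00293), 2 of 8 against 2.78% of genes.

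S100a9 in KO ran from 135.2 to 499.6 CPM with CCM (median 215.0), against a vehicle median of 302.4 CPM, and was lower in 5 of 6 pairs, the exception being replicate 6. With replicate 6 its paired value missed the threshold (-0.33, SE 0.0818, edgeR adjusted p = 0.0522). The neutrophil marker sum was lower with CCM in KO replicates 2 to 6 and higher in replicate 1 (443 and 461 CPM). For the other 6 members the paired changes without replicate 6 ran from -0.23 (S100a6, edgeR adjusted p = 0.0519) to 0.01. Both genotypes thus had negative S100a8 and S100a9 values with CCM, and the difference between genotypes in the response to CCM without LPS was not tested.

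When CCM was added to LPS in WT macrophages, S100a9 was lower still. It was at 141.4, 152.2 and 175.2 CPM, below the 184.9 to 192.8 CPM of LPS alone. The log2 change was -0.28 (SE 0.0708, edgeR adjusted p = 0.0292), 1 of 8 members called, against 11.9% of 13579 genes in either direction and 7.78% lower. The call was lost under total counts (-0.20, edgeR adjusted p = 0.0866) and on leaving out any 1 library except WT LPS+CCM replicate 3 (edgeR adjusted p = 0.0508 to 0.115). S100a10 was at 86.9, 101.5 and 105.0 CPM, below the LPS libraries at 107.5 to 120.3 CPM (log2 change -0.23, SE 0.0734, edgeR adjusted p = 0.0736). Non-overlap in that direction held for 15.3% of all genes.

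These pairs deviated together, and with the replicate block 3 members were called lower, against 13.3% of genes. They were S100a9 (-0.28, edgeR adjusted p = 0.000866), S100a10 (-0.23, edgeR adjusted p = 0.000916) and S100a8 (-0.21, edgeR adjusted p = 0.0249). S100a8 was at 143.6, 133.7 and 167.9 CPM with LPS+CCM against 187.1, 171.4 and 158.4 CPM with LPS, lower in 2 of 3 pairs. The neutrophil marker sum was 283 to 330 CPM with LPS+CCM and 337 to 348 CPM with LPS. S100a1, S100a6, S100a11, S100a4 and S100a13 had changes from -0.21 to 0.11 and overlapping groups, and S100a1 and S100a6 had the opposite sign under total counts. Of 14 partner and receptor genes tested, Myh9 was called higher (4.15% of all genes were) and Anxa1, Anxa11 and Il1a lower (7.78% of all genes). Anxa1, for the partner of S100A11, fell from 923.1 ± 40.4 to 668.3 ± 23.4 CPM. Of the 8 controlling genes, Cebpa rose by 0.40 on the log2 scale and Stat3, Il10 and Il6 fell by 0.30, 0.74 and 0.90.

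In LPS-stimulated KO macrophages CCM gave no call for any member. The edgeR fit called 0 of 8, against 0.112% of 13386 genes, with 0 at an unadjusted p under 0.05 and 0 by DESeq2, and also 0 without replicate 6. Values were above 0 for 7 of 8 members, from 0.03 (S100a9) to 0.47 (S100a13, SE 0.489, edgeR adjusted p = 0.861). Libraries 2, 5 and 6 were the high ones. S100a13 was at 43.9, 63.6 and 113.4 CPM in LPS+CCM replicates 2, 5 and 6 and at 19.4 to 24.1 CPM in replicates 1, 3 and 4, and S100a10 at 150.6, 220.3 and 321.0 CPM against 100.1 to 113.4 CPM. These are the libraries in which short genes were high. Leaving out replicate 5 turned the signs of S100a8 (-0.03) and S100a9 (-0.07), leaving out replicate 2 turned that of S100a9 (-0.01), and without replicate 6 S100a13 was at 0.53 (edgeR adjusted p = 0.342).

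No member was called between genotypes. For KO against WT with vehicle, edgeR called 0 of 8 members and 0% of 14385 genes, with 0 members at an unadjusted p under 0.05 and 0 by DESeq2, and under LPS it called 0 of 8 and 0% of 13794 genes, again with 0 and 0. The log2 differences of the members, all positive, were 0.24 (S100a11) to 0.65 (S100a13) with vehicle and 0.28 (S100a11) to 0.71 (S100a4) under LPS. Without replicate 6 they were -0.13 (S100a10) to 0.36 (S100a8) with vehicle and -0.07 (S100a11) to 0.27 (S100a4) under LPS. S100a8 and S100a9, at 0.36 (SE 0.238) and 0.28 (SE 0.235), were the highest with vehicle, and KO replicates 3 and 4, with the high neutrophil marker sums, were their highest libraries besides replicate 6.

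Interaction terms were not called for any member. The LPS by CCM term called 0 of 8 members in WT, against 2.09% of 14747 genes, with 1 member (S100a13) at an unadjusted p under 0.05. In KO it called 0 of 8, against 0.00685% of 14588 genes, with 0 members at an unadjusted p under 0.05 and 4 (S100a6, S100a8, S100a9 and S100a13) in pairs without replicate 6, all positive, from 0.51 to 0.68. The genotype by LPS term and the genotype by CCM term under LPS each called 0 of 8 members and 0% of genes, and 0 members at an unadjusted p under 0.05. The genotype by LPS values of the members ran from -0.08 to 0.19, and from -0.22 to 0.30 without replicate 6, again with 0 called. DESeq2 called 0 members in all 4. For S100a9, the genotype by CCM term under LPS was 0.32 (SE 0.473), and 0.37 (SE 0.201, edgeR adjusted p = 0.851) in pairs without replicate 6.

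Across libraries the members formed 2 sets, described here without a test. After each group's mean was taken off and KO replicate 6 left out (32 libraries), S100a8 and S100a9 had a Pearson r of 0.97 on log2 CPM. The libraries differ in depth, and LPS+CCM replicates 5 and 2, with their excess of short genes, are among them. The r of S100a8 and S100a9 with the other 6 members ran from -0.18 to 0.36. S100a6, S100a10 and S100a13 had r of 0.88 to 0.93 with each other, and S100a1 and S100a13, 42 bases apart, had r of 0.85. The genes most like S100a8 outside the member list were Camp (r = 0.94), Pglyrp1 (0.88) and Ngp (0.87), and those most like S100a9 were Ngp (0.94), Camp (0.93) and I830127L07Rik (0.92). Camp, Pglyrp1 and Ngp encode neutrophil granule proteins. Closest to S100a6 were Myl12a (0.96) and Lgals1, the gene for galectin-1 (0.95), closest to S100a1 was Cd63 (0.95), and closest to S100a10 were Clic1 and Mrpl28 (0.95 each). S100a13 was most like the ribosomal protein gene Rpl27a (0.97), S100a11 most like Gm7665 (0.89) and S100a4 most like Gm2000 (0.83).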

How the data were processed

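Poly(A) RNA from 36 BMDM cultures was sequenced as paired ends. The deposited file holds raw counts per gene. According to the submitters' notes, the authors cleaned reads with fastp, aligned them to mm10 with HISAT2 2.0.5 and counted them with featureCounts 1.5.0-p3, so short genes and reads shared by overlapping genes bear on these values. Strand use in counting is not given in the sources used here.

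Counts were scaled by TMM and tested in R 4.3.3 with edgeR 4.0.16 (filterByExpr, quasi-likelihood, Benjamini-Hochberg over all genes tested, called at 0.05), using only the groups compared. The study's own tool, DESeq2 (1.42.0 here), was an alternative, with other scalings, no filter, all libraries in 1 fit, a replicate block and libraries left out. The fit was tested on simulated data. The correlation of same-numbered libraries was 0.299 to 0.829 for LPS in KO, 0.338 to 0.842 for CCM in KO and 0.151 to 0.36 for LPS+CCM against LPS in WT, over 0.1 in every pair, and these were treated as paired. Nothing in the labels says that cultures of 1 number came from 1 mouse, so p-values measure the spread between these libraries. CPM used the scaled library sizes of all 36 libraries.

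The members and gene lists were chosen with earlier results of these data known. All 8 members are named in each comparison. Levels between genes were compared per kilobase of deposited gene length.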

Additional observations from a re-analysis of the deposited data

Results flagged for a closer look

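Dixon's test for a value far from its group was applied to the 32 combinations of gene and KO treatment (n = 6). It flagged 22, all of them KO replicate 6 on the high side, where a single test flags about 1 in 20 by chance. The combinations are not independent, since the genes share the libraries of replicate 6. The share of all genes that would be flagged was not computed. WT groups of 3 are too small for this test.

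S100a1 in KO replicate 6 was at 380.8 CPM under vehicle and 439.6 CPM under CCM, the next library being at 111.5 and 116.8 CPM, and at 274.0 CPM under LPS and 276.3 CPM under LPS+CCM, the next being at 85.1 and 144.9 CPM. S100a10 was at 337.9 with vehicle, 342.0 with CCM and 313.7 CPM with LPS. S100a11 was at 837.5, 764.0 and 674.5 CPM in the same order, and S100a13 at 126.0, 158.6 and 84.1 CPM. S100a4 was at 9.48, 12.35 and 5.28 CPM, with the next library at 2.55, 2.63 and 2.53 CPM. S100a6 was at 827.6, 991.5 and 586.5 CPM.

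S100a8 was flagged with CCM (317.5 CPM) and LPS (423.8 CPM), and S100a9 with LPS alone (473.4 CPM, next 253.7). Under vehicle neither was flagged, S100a8 being at 322.2 CPM with the next library at 272.8, and S100a9 at 484.8 with the next at 382.9 CPM. No interaction was called and no member moved in opposite directions in every pair of both genotypes.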

How the results depend on the processing

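LPS in WT: 0 members were called when all 36 libraries shared 1 fit, and S100a8 turned to -0.21 under total counts. LPS in KO, where 0 were called: 2 under total counts (55.2% of all genes, S100a8 at -0.30), 6 with the replicate block (71.6%), 6 with the block and without replicate 6 (72.4%), and 0 to 5 on leaving out replicates, S100a8 then being -0.02 to 0.19. CCM in WT, where 0 were called: 3 with no filter, 1 by DESeq2 and 1 with the replicate block (S100a9, against 1.82% of all genes), although these pairs were not all correlated (r from 0.0512). S100a11 was at 0 with all libraries in 1 fit. With libraries left out, S100a1 ran from -0.16 to 0.02, S100a4 from -0.14 to 0.24 and S100a11 from -0.09 to 0.07.

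CCM in KO, where 0 were called: 1 with the replicate block (3.11% of all genes) and 2 with the block and without replicate 6 (5.24%). S100a6 turned to -0.06 under total counts, -0.13 with the block and -0.23 with the block and without replicate 6, and S100a13 to -0.06 and -0.16 in the last 2 of these. With the block and without replicate 6, S100a4 was at -0.10 and S100a11 at 0.01. With libraries left out, S100a4 ran from -0.09 to 0.24, S100a6 from -0.24 to 0.10, S100a11 from -0.05 to 0 and S100a13 from -0.17 to 0.19.

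LPS+CCM against LPS in WT, where 1 was called: 0 under total counts (16.7% of all genes), 3 with no filter, 2 by DESeq2, 0 with all libraries in 1 fit, 3 with the replicate block (23.7%) and 0 to 2 with libraries left out. Under total counts S100a1 was at 0.05 and S100a6 at 0.01, and with libraries left out S100a1 ran from -0.08 to 0.02. In KO, S100a11 was at 0.01 with the block and without replicate 6, and with libraries left out S100a8 ran from -0.03 to 0.20, S100a9 from -0.07 to 0.08 and S100a11 from -0.18 to 0.03. The summed level of the members in WT vehicle was 1451 CPM under total counts.

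The replicate block changed no other member count. Shares of all genes with no filter, by DESeq2 and with all libraries in 1 fit are not given, so those member counts have no background beside them. The fits with the block and without KO replicate 6 were chosen after the data were seen. The cause of these shifts was not tested. Counting depth bears most on S100a4, which was at 0.765 to 3.26 CPM outside KO replicate 6.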

Other observations

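S100a16, no member of the list above, held 17 to 334 counts per library. Its log2 change with LPS was -0.68 in WT (SE 0.291, edgeR adjusted p = 0.0648), -0.55 in KO (edgeR adjusted p = 0.458) and, in KO pairs without replicate 6, -0.93 (SE 0.184, edgeR adjusted p = 0.000691). With CCM alone it was -0.69 in WT (edgeR adjusted p = 0.55) and, in the same KO pairs, -0.47 (edgeR adjusted p = 0.113).

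The count ratio of S100a13 to its divergent neighbour S100a1 ran from 0.259 to 0.297 in WT vehicle libraries and from 0.272 to 0.331 with LPS. In KO libraries it reached 0.439 in LPS+CCM replicate 5 and 0.410 in LPS+CCM replicate 6.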
